A study of Mus musculus with 13 samples.

Results

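The genes described here are the 10 rows of a table of 24495 mouse genes that carry the symbols Chst3, Chst7, Chst11, Chst12, Chst14, Chst15, Chsy1, Chsy3, Chpf and Csgalnact1. They encode enzymes that build and sulfate chondroitin sulfate and its relative dermatan sulfate. Chst3 was chosen by its measured counts in these libraries, which were higher with Tet2-WT and with Tet2-E than with the empty vector, and the other 9 for their enzyme activity. All 10 passed the filter on low counts, which 14607 genes passed. The set does not hold every enzyme of the pathway, and the remaining ones are given as separate lists further on.

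Bulk RNA-seq read counts came from 13 libraries of mouse cells, all from Tet2-/- embryonic fibroblasts (MEFs) of embryonic day 12.5, strain V6.5 129XBI/6, with doxycycline-inducible OKSM reprogramming factors and rtTA. The Tet2-WT group (n = 3) carried retroviral wild-type Tet2, the Tet2-E group (n = 4) a stalling mutant of Tet2, and the pMXs group (n = 3) the empty retroviral vector. These groups were collected at day 5 of reprogramming. They were grown on feeder MEFs treated with Mito-C, in medium with doxycycline (2 µg/mL), LIF, the GSK3 inhibitor CHIR99021 (3 µM) and the MEK inhibitor PD0325901 (1 µM). Untreated MEFs (n = 3) had the same genotype without reprogramming, and it is unclear from the labels if they held the empty vector. By the labels the pMXs and untreated controls are therefore Tet2-/- as well, and the genotype of the feeders is not stated. The protocols name no sort, so a day 5 library is taken as the whole culture with its feeders.

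Chondroitin sulfate is a sugar chain attached to core proteins of the cell surface and the matrix. Csgalnact1 adds the first N-acetylgalactosamine that commits a chain to this type, and Chsy1, Chsy3 and Chpf lengthen the chain. Chst3 and Chst7 sulfate N-acetylgalactosamine at carbon 6, Chst11 and Chst12 at carbon 4, Chst14 does the same on dermatan, and Chst15 adds a further sulfate at carbon 6 to a residue already sulfated at carbon 4. Fibroblasts secrete matrix proteins that carry these chains. Loss of Chst3 function in humans causes a skeletal dysplasia with joint dislocations.

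Total counts were 20261396 to 25720579 with Tet2-WT, 14052646 to 26265382 with Tet2-E, 14310277 to 25326826 with pMXs and 21985590 to 25991708 in untreated MEFs. Tet2 RNA was at 1176 to 1243 CPM (counts scaled to library size) with Tet2-WT and 581 to 1403 CPM with Tet2-E, against 39.1 to 58.8 CPM with pMXs and 37.8 to 48.3 CPM in untreated MEFs. The 601 to 1022 Tet2 counts in each pMXs library and 901 to 992 in each untreated library are per gene, and the deleted part is not stated, so they do not check the genotype. The Tet2-E library at 581 CPM was replicate 100, and the other Tet2-E libraries lay at 1299 CPM or above. Summed fibroblast markers were at 17074 to 18229 CPM with Tet2-WT, 20450 to 21709 CPM with Tet2-E, 22265 to 26309 CPM with pMXs and 43445 to 47123 CPM in untreated MEFs. Most of that sum was Vim, Col1a1 and Col1a2. Vim averaged 6391 CPM with Tet2-WT and 6281 CPM in untreated MEFs, Col1a1 4705 and 18843 CPM, and Col1a2 4806 and 11132 CPM. Summed macrophage markers, of which Adgre1 and C1qa were at 0 in every Tet2-WT library, were at 213 to 309 CPM with Tet2-WT, 93.5 to 127 CPM with Tet2-E, 81.0 to 94.6 CPM with pMXs and 4.63 to 5.45 CPM in untreated MEFs. Laptm5 alone averaged 251 CPM of that sum with Tet2-WT. Lyz2 was at 0.044 CPM with Tet2-WT, 0.108 CPM with pMXs and 2.06 CPM in untreated MEFs, and Ptprc was at or near 0 throughout. Replicate numbers 1 and 2 on the one hand and 100 and 250 on the other formed sets of day 5 libraries that varied together, and the labels do not say what the numbers mean. Library preparation was split into 2 sets, per the labels' protocols, with no list of the members, so whether the numbers mark those sets is not known. Nor is it stated that replicates came from separate cultures, so the p-values cover the spread among these libraries alone. Within numbers 1 and 2 the pMXs group is replicate 2 alone. Within 100 and 250 the Tet2-WT group is replicate 250 alone and the untreated group replicate 100 alone. Where a group is a lone library, only the log2 difference within the set is given.

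Chst3, a chondroitin 6-O-sulfotransferase, was lowest in untreated MEFs, higher in every day 5 library and highest with Tet2-WT. It was at 151, 148 and 138 CPM in Tet2-WT libraries. In Tet2-E libraries it was at 72.9, 68.0, 64.4 and 60.5 CPM, against 52.6, 42.9 and 42.7 CPM in pMXs libraries and 2.25, 2.57 and 2.63 CPM in untreated MEFs. No 2 groups overlapped, and the order of the levels was Tet2-WT, Tet2-E, pMXs and untreated. The 51 to 54 counts behind each untreated value show that the gene was detected there.

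The group means were 146 ± 7.0 CPM with Tet2-WT (SD, n = 3) and 66.4 ± 5.29 CPM with Tet2-E (SD, n = 4), against 46.0 ± 5.64 CPM with pMXs (SD, n = 3) and 2.48 ± 0.205 CPM in untreated MEFs (SD, n = 3). Chst3 was chosen for its higher counts with Tet2-WT and Tet2-E, so all comparisons that use Tet2-WT or Tet2-E libraries are given for this gene as a description without a test. The log2 difference was 1.66 ± 0.09 (SE) for Tet2-WT against pMXs, which is 3.17-fold. It was 1.13 ± 0.08 for Tet2-WT against Tet2-E, and 0.53 ± 0.09 for Tet2-E against pMXs, which is 1.44-fold.

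Both differences from pMXs use the same pMXs libraries. Within replicate numbers 1 and 2 the log2 difference of Chst3 was 1.51 for Tet2-WT against pMXs and 0.42 for Tet2-E against pMXs. Within replicate numbers 100 and 250 the difference was 1.69 for Tet2-WT against pMXs and 0.54 for Tet2-E against pMXs. Between pMXs and untreated MEFs, Chst3 rose by 4.21 ± 0.12 on the log2 scale, or 18.6-fold (edgeR quasi-likelihood test, Benjamini-Hochberg adjusted p = 6.66e-13). The pMXs libraries were also part of the contrast for which the gene was picked. In whole cultures, a change in the share of cells that express a gene and a change in RNA per cell cannot be told apart. The macrophage marker sum, carried mostly by Laptm5, was higher with Tet2-WT than with pMXs. The fibroblast sum, carried mostly by Vim, Col1a1 and Col1a2, was lower. The part of these cell types in the Chst3 result was not tested.

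**Figure D1:**
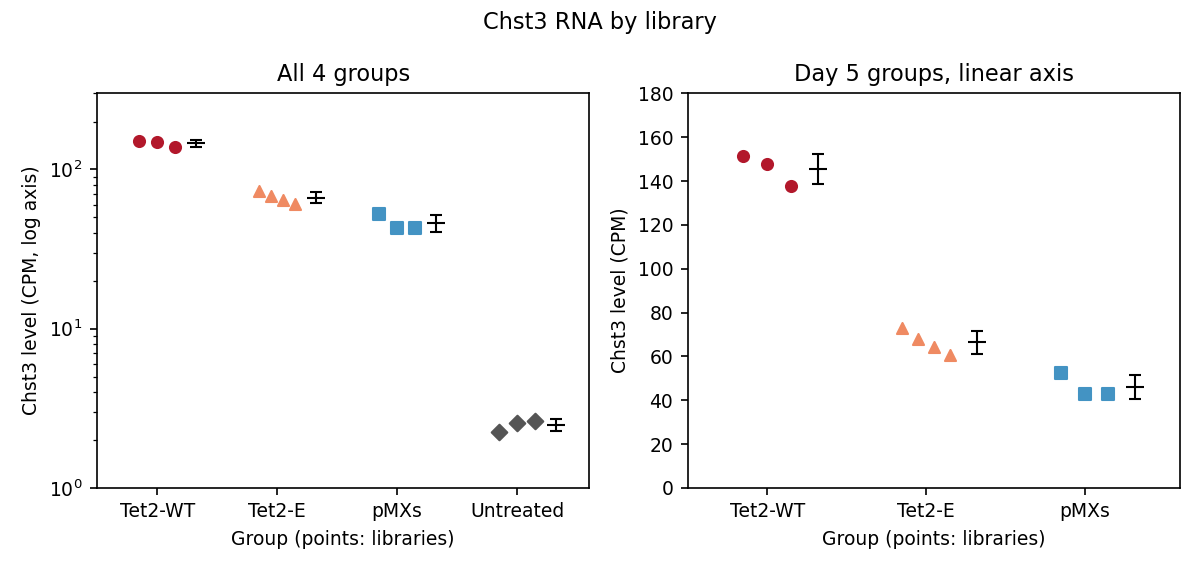
Chst3 level in each library, in CPM, on a log axis for all 4 groups at the left and on a linear axis for the day 5 groups at the right (points, 1 library each; beside them the group mean with its SD). The 3 Tet2-WT libraries sit at 138 to 151 CPM, above all Tet2-E libraries, and the untreated MEFs are at 2.25 to 2.63 CPM.

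The promoters of Chst3 and Chst7 are shown because Chst3 was higher and its sister 6-O-sulfotransferase Chst7 lower with Tet2-WT, and because Tet2 oxidises methylated cytosine, mostly where C is followed by G. Each window runs from 250 bases before to 50 bases after a transcription start that RefSeq annotates on GRCm38.p6. Chst3 lies at chr10:60219211-60219510 on the minus strand and Chst7 at chrX:20059320-20059619 on the plus strand. Both are read 5′ to 3′ on the gene's strand, with each CG pair in capitals.
Chst3: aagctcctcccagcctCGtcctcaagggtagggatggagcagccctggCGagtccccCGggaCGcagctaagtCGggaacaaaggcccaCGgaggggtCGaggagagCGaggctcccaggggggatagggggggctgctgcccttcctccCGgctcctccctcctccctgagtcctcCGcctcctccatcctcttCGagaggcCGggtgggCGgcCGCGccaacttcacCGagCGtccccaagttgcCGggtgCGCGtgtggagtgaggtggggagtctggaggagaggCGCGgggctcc
Chst7: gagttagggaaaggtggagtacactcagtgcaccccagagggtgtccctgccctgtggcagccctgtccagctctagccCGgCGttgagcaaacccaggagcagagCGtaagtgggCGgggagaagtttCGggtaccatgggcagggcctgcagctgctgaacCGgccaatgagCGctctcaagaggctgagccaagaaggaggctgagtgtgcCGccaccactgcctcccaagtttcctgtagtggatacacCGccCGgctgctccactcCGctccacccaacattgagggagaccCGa
The Chst3 window held 22 CG pairs, more than 76.9% of the 32851 windows in the table, and the Chst7 window held 12, more than 60.4% of them. The median over all windows was 7, with quartiles of 3 and 20. No methylation was measured in these samples. The libraries were aligned to mm9, a different build, so the windows serve only to show sequence.

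Windows of 8 of the 10 genes were used, with 9 starts between them. Chst11 and Chsy1 had the most CG pairs, 34 each, followed by Chpf with 26, Chst12 with 24, Chst14 with 18 and Chst15 with 15 and 24 at its 2 starts. Letters of 3 motifs were searched on both strands. The octamer ATGCAAAT, a motif of Pou5f1, was in 0 of the 9 windows and in 1.74% of all windows. The Myc-type letters CACGTG were in 2 of the 9 windows, those of Chst14 and Chsy1, and in 7.15% of all. The Klf-type letters GGGTGTG were in 0 of the 9 and in 7.95% of all. A match is only a description of the letters in the window.

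At day 5 with the empty vector, the pathway moved unevenly relative to untreated MEFs. Of the 10 genes, 3 rose (Chst3, Chst11 and Chst15), 6 fell (Chst12, Chst14, Chsy1, Chsy3, Chpf and Csgalnact1) and 1, Chst7, did not pass the test. Of all genes tested, 70.1% were called in this contrast, 35% higher and 35% lower. The groups did not overlap for 9 of the 10 genes, and this held for 72% of all genes tested. The median log2 change was -0.80 over the 10 genes and close to 0 over all genes tested. Reprogramming factors, medium and feeders all differ between these groups and cannot be told apart. Markers of other cell types moved in the same contrast. Of 11 fibroblast markers 10 were lower and none higher with pMXs, and of 6 chondrocyte markers tested 4 were lower and none higher. Of 8 epithelial markers 7 were higher and none lower, and all 5 pluripotency markers tested were higher. Among them Epcam, Krt8, Cldn3, Cldn4, Esrp1, Sall4, Lin28a, Tdgf1 and Esrrb averaged 0.0139 to 0.205 CPM in untreated MEFs. These genes passed the count filter only through day 5 libraries, so their calls could only be higher. Of 4 endothelial markers tested, 2 were higher and 1 lower. Of 5 macrophage markers tested, 3 were higher (Cd68, Itgam and Laptm5) and 2 lower (Csf1r and Lyz2). Itgam (0.121 CPM in untreated MEFs) and Laptm5 (0.263 CPM) have the same limit of the filter. For Lyz2 and the chondrocyte marker Col9a1, both called lower, the limit runs the other way. Lyz2 was at 0.108 CPM with pMXs against 2.06 CPM untreated, and Col9a1 at 0.205 against 1.08 CPM. With pMXs and with Tet2-WT both were too low to pass the count filter, so their calls could hardly be higher. The part of these cell types in the result was not tested.

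The chain-starting enzyme fell furthest. Csgalnact1 was at 14.8, 15.8 and 16.9 CPM with pMXs, against 64.1, 75.8 and 105 CPM in untreated MEFs. Its level fell by 2.37 ± 0.15 on the log2 scale, or 5.16-fold (adjusted p = 1.98e-09, edgeR). The untreated libraries spread widely, with an SD of 21.3 CPM around 81.8 CPM, but no pMXs library came near them.

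The polymerising enzymes fell as well. Chpf, a chain polymerisation factor, was at 107, 126 and 123 CPM with pMXs, against 277, 258 and 229 CPM in untreated MEFs, and it fell by 1.10 ± 0.08 (log2, edgeR adjusted p = 1.66e-08). Chsy3 was at 6.97, 8.96 and 5.54 CPM with pMXs, against 14.9, 18.4 and 22.2 CPM in untreated MEFs, a fall by 1.34 ± 0.17 (log2, adjusted p = 3.68e-06). Chsy1 moved least of the polymerising enzymes, at 95.9, 93.2 and 99.5 CPM with pMXs, against 137, 135 and 137 CPM in untreated MEFs. It fell by 0.50 ± 0.06 (log2, adjusted p = 1.55e-06), and for each of these enzymes the groups did not overlap.

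The 4-O-sulfotransferases split. Chst12 was at 34.4, 38.2 and 34.7 CPM with pMXs, against 98.8, 96.1 and 80.3 CPM in untreated MEFs, and fell by 1.36 ± 0.09 (log2, edgeR adjusted p = 5.59e-09). Chst14, which acts on dermatan sulfate, was at 36.1, 39.2 and 39.8 CPM with pMXs, against 86.8, 84.8 and 72.8 CPM in untreated MEFs, and fell by 1.09 ± 0.08 (log2, adjusted p = 1.84e-08). Chst11, the main 4-O-sulfotransferase of cartilage, moved the other way. It was at 63.2, 55.8 and 58.8 CPM with pMXs, against 39.0, 45.1 and 49.0 CPM in untreated MEFs, a rise of 0.42 ± 0.12 (log2, adjusted p = 0.00736). Within replicate numbers 100 and 250 the difference was 0.22.

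Chst15, which makes the disulfated unit, rose by 0.98 ± 0.12 on the log2 scale (edgeR adjusted p = 2.79e-06). It was at 35.7, 32.7 and 35.0 CPM with pMXs, against 18.6, 19.3 and 14.3 CPM in untreated MEFs. Chst7 was at 13.1, 18.7 and 18.9 CPM with pMXs, against 15.9, 15.9 and 13.8 CPM in untreated MEFs, and the groups overlapped (log2 difference 0.15 ± 0.17, adjusted p = 0.436). Its difference had opposite signs in the sets, -0.28 within replicate numbers 1 and 2 and 0.44 within 100 and 250. Of the pair of 6-O-sulfotransferases, therefore, Chst3 changed 18.6-fold and Chst7 gave no settled direction.

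**Figure D2:**
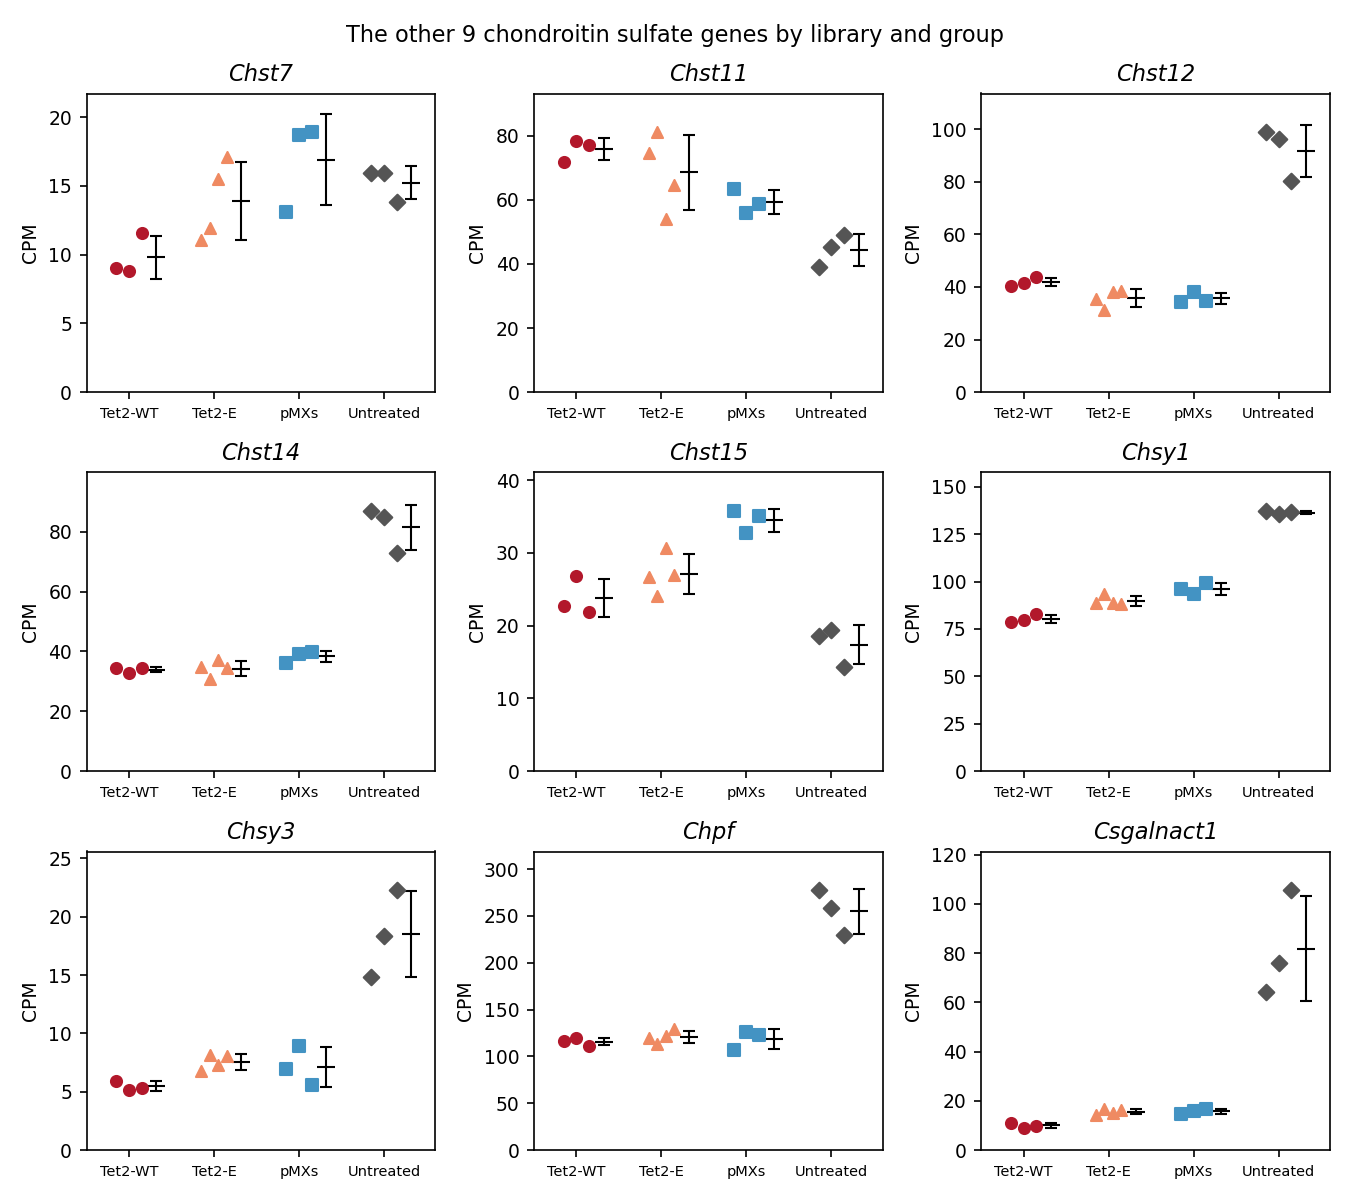
Levels of the 9 genes other than Chst3 in CPM on linear axes from 0, 1 panel a gene and 1 point a library, with the group mean and SD beside the points, for Tet2-WT, Tet2-E, pMXs and untreated libraries. Csgalnact1 averages 10.0 CPM with Tet2-WT and 81.8 CPM in untreated MEFs, while Chst11 and Chst15 are lowest in untreated MEFs.

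The Tet2-WT and Tet2-E libraries, set against the same untreated MEFs, gave 2 higher and 7 lower for Tet2-WT and 2 higher and 6 lower for Tet2-E among the 9 genes other than Chst3. Of all genes tested, 72.7% were called for Tet2-WT (37.3% higher, 35.3% lower) and 72.8% for Tet2-E (36.7% higher, 36.1% lower). The groups did not overlap for 9 of the 9 genes with Tet2-WT, against 74.3% of all genes, and for 8 of the 9 with Tet2-E, against 68.7%. Csgalnact1 fell by 3.03 ± 0.15 with Tet2-WT (log2, edgeR adjusted p = 1.18e-10) and by 2.39 ± 0.13 with Tet2-E (adjusted p = 3.79e-10). Chst7 fell by 0.64 ± 0.18 with Tet2-WT (adjusted p = 0.00425), and its difference of -0.12 ± 0.16 with Tet2-E did not pass (adjusted p = 0.516). With Tet2-E it fell by 0.47 within replicate numbers 1 and 2 (adjusted p = 0.00127), and within 100 and 250 the difference was 0.24. The fall with Tet2-WT was 0.84 (adjusted p = 2.87e-06) within replicate numbers 1 and 2, and within 100 and 250 the difference was -0.25.

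With Tet2-WT against pMXs, the genes other than Chst3 moved down or did not pass. Of these 9 genes, 4 fell (Chst7, Chst15, Chsy1 and Csgalnact1), none rose and 5 did not pass. Of all genes tested, 12.5% were called, 6.01% higher and 6.52% lower. The libraries of the groups did not overlap for 7 of the 9, and this held for 34.6% of all genes tested. The median log2 difference was -0.26 over the 9 genes and close to 0 over all genes. DESeq2 also called 4 of the 9, and the share of all genes that it called in this contrast is not given here. These members were listed with earlier results of these data known.

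Chst7, the other 6-O-sulfotransferase, was lower with Tet2-WT, where Chst3 was higher. It was at 9.01, 8.84 and 11.6 CPM with Tet2-WT, against 13.1, 18.7 and 18.9 CPM with pMXs. No Tet2-WT library reached the lowest pMXs library, and Chst7 fell by 0.79 ± 0.18 (log2, edgeR adjusted p = 0.00767). Libraries numbered 100 and 250 were higher than those numbered 1 and 2 within the Tet2-WT, Tet2-E and pMXs groups. Within replicate numbers 1 and 2 the difference was -0.56, and within 100 and 250 it was -0.70.

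Csgalnact1, the initiating enzyme, was at 11.1, 9.02 and 9.94 CPM with Tet2-WT, against 14.8, 15.8 and 16.9 CPM with pMXs. The groups did not overlap, and it fell by 0.66 ± 0.16 (log2, edgeR adjusted p = 0.0113). Without Tet2-WT replicate 2 the adjusted p was 0.0613, and without pMXs replicate 250 it was 0.0517. Chst15 was at 22.7, 26.8 and 21.9 CPM with Tet2-WT, against 35.7, 32.7 and 35.0 CPM with pMXs, and it fell by 0.53 ± 0.12 (log2, adjusted p = 0.00745). It was thus lower with Tet2-WT than with pMXs, yet still above untreated MEFs, by 0.45 ± 0.12 (log2, adjusted p = 0.00313).

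Chsy1, a polymerising enzyme, was at 78.4, 79.8 and 82.8 CPM with Tet2-WT, against 95.9, 93.2 and 99.5 CPM with pMXs. The difference was small and the libraries were tight, and it fell by 0.26 ± 0.06 (log2, edgeR adjusted p = 0.00818). Within replicate numbers 1 and 2 the log2 difference of Chsy1 was -0.28, and within 100 and 250 it was -0.22. Chsy3 was at 5.96, 5.15 and 5.35 CPM with Tet2-WT, against 6.97, 8.96 and 5.54 CPM with pMXs (log2 difference -0.41 ± 0.18, adjusted p = 0.163). Chpf was at 117, 119 and 111 CPM with Tet2-WT, against 107, 126 and 123 CPM with pMXs, with the groups overlapping (log2 difference -0.03 ± 0.08, adjusted p = 0.851).

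The 4-O-sulfotransferases did not pass in this contrast. Chst11 was at 71.8, 78.4 and 77.2 CPM with Tet2-WT, against 63.2, 55.8 and 58.8 CPM with pMXs (log2 difference 0.36 ± 0.12, edgeR adjusted p = 0.0722). Chst12 was at 40.5, 41.7 and 43.6 CPM with Tet2-WT, against 34.4, 38.2 and 34.7 CPM with pMXs (log2 difference 0.23 ± 0.09, adjusted p = 0.142). Neither gene's groups overlapped, and when the fit held these groups alone, the adjusted p was 0.00601 for Chst11 and 0.0497 for Chst12. Within replicate numbers 100 and 250 the log2 difference of Chst11 was 0.43. Chst14 was at 34.6, 32.9 and 34.4 CPM with Tet2-WT, against 36.1, 39.2 and 39.8 CPM with pMXs (log2 difference -0.18 ± 0.08, adjusted p = 0.21).

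With Tet2-E against pMXs, none of the 9 genes passed by edgeR or by DESeq2, and 1 of them, Chst15, had an unadjusted p under 0.05. The share of all genes under that unadjusted value was not computed. Of all genes tested, 7 were called in this contrast, or 0.0479% (0.0205% higher, 0.0274% lower), and 93 with the replicate number as a block, which left the members' count at 0. The groups did not overlap for 1 of the 9, against 10.2% of all genes tested. Chst15 was that gene, at 26.7, 24.0, 30.7 and 27.0 CPM with Tet2-E, against 35.7, 32.7 and 35.0 CPM with pMXs (log2 difference -0.34 ± 0.11, adjusted p = 0.298). Chst7 was at 11.1, 12.0, 15.5 and 17.1 CPM with Tet2-E, and the groups overlapped (log2 difference -0.27 ± 0.16, adjusted p = 0.633). Csgalnact1 was at 14.4, 16.7, 15.2 and 16.2 CPM with Tet2-E, over the same range as with pMXs (log2 difference -0.02 ± 0.14, adjusted p = 0.984).

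The other Tet2-E levels lay close to pMXs too. Chsy1 was at 88.8, 93.4, 88.6 and 88.1 CPM with Tet2-E (log2 difference from pMXs -0.10 ± 0.05), and Chpf was at 120, 113, 122 and 129 CPM (0.03 ± 0.08). Chst11 was at 74.6, 81.0, 54.1 and 64.6 CPM with Tet2-E, the lower pair being replicates 100 and 250 (0.21 ± 0.12). The remaining differences were 0.00 ± 0.09 for Chst12, -0.16 ± 0.08 for Chst14 and 0.06 ± 0.16 for Chsy3, and edgeR's adjusted p was 0.567 or above for each gene named in this paragraph.

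With Tet2-WT against Tet2-E, 1 of the 9 genes fell (Csgalnact1), none rose and 8 did not pass, where 4.62% of all genes tested were called, 2.43% higher and 2.19% lower. DESeq2 called 2 of the 9, and the share of all genes that it called is not given here. The groups did not overlap for 4 of the 9, against 15% of all genes. The mean of Csgalnact1 was 10.0 ± 1.05 CPM with Tet2-WT (SD, n = 3) and 15.6 ± 1.04 CPM with Tet2-E (SD, n = 4), and it fell by 0.64 ± 0.15 (log2, edgeR adjusted p = 0.0195). The adjusted p was 0.12 without Tet2-WT replicate 2, 0.0525 without Tet2-WT replicate 250, 0.0502 without Tet2-E replicate 2 and 0.0515 without Tet2-E replicate 250. Chst7 averaged 9.82 ± 1.55 CPM with Tet2-WT (SD, n = 3) and 13.9 ± 2.85 CPM with Tet2-E (SD, n = 4), with a log2 difference of -0.52 ± 0.17 (adjusted p = 0.102). In the fit with the replicate number as a block, that difference was -0.48 and passed (adjusted p = 0.0408). It also passed without Tet2-E replicate 1 (adjusted p = 0.0491) and with a term for the set (0.0444), but not within replicate numbers 1 and 2 (0.0805). Within 100 and 250 the difference was -0.49.

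Chsy1 averaged 80.4 ± 2.25 CPM with Tet2-WT (SD, n = 3) and 89.7 ± 2.47 CPM with Tet2-E (SD, n = 4), without overlap (log2 difference -0.16 ± 0.05, edgeR adjusted p = 0.132). DESeq2 called it, with an adjusted p of 0.0228. Chst12 averaged 41.9 ± 1.58 CPM with Tet2-WT (SD, n = 3) and 35.8 ± 3.28 CPM with Tet2-E (SD, n = 4), with a log2 difference of 0.22 ± 0.09 (edgeR adjusted p = 0.202). The log2 difference of Chst3 between the wild-type and the mutant Tet2 libraries was 1.13, and its absolute value was at most 0.64 among the other 9 genes. Chst3 was chosen for its counts in these libraries, so its larger difference is a description.

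**Figure D3:**
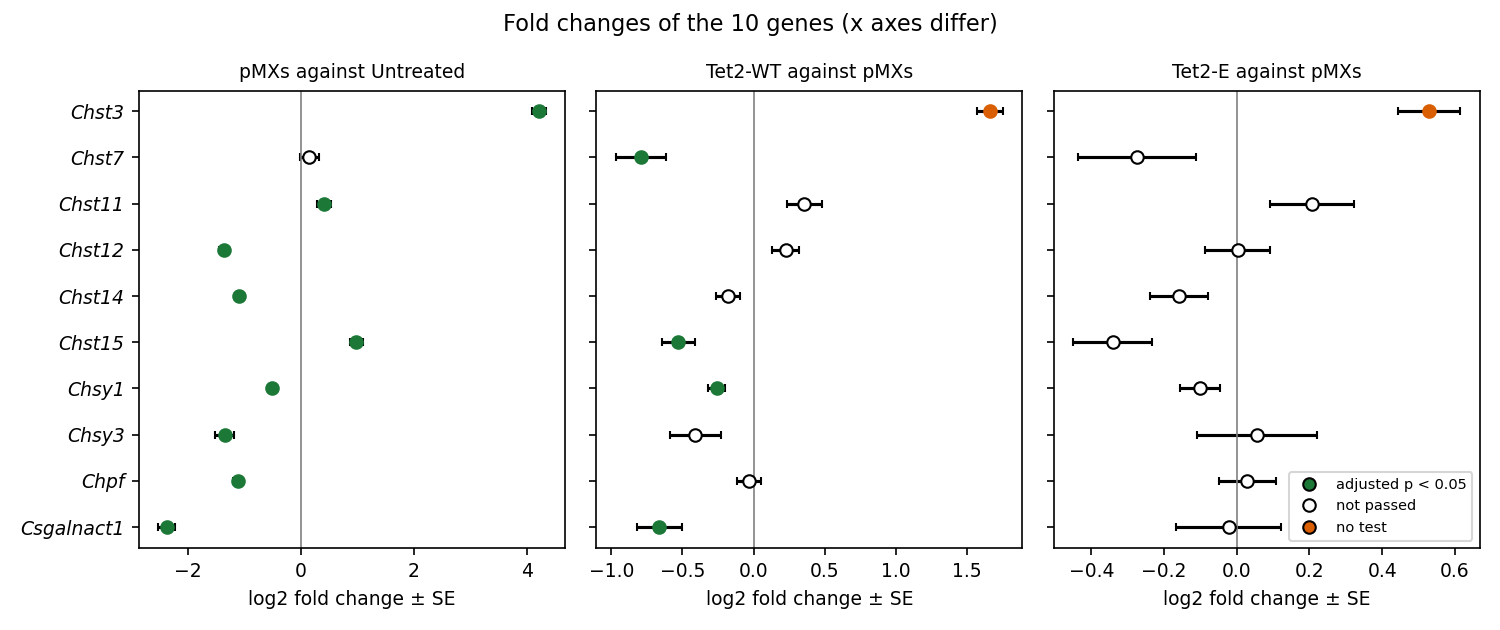
Log2 fold changes of the 10 genes with their SE for pMXs against untreated MEFs, Tet2-WT against pMXs and Tet2-E against pMXs, on axes of different width (green, passed; open, not passed; orange, Chst3 without a test). Chst3 is furthest to the right in each panel, and the Tet2-E points of the other 9 genes lie between -0.34 and 0.21.

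The order of the groups differed by gene. Chst7 was ordered pMXs, untreated, Tet2-E and Tet2-WT, and no neighbours in that order differed by edgeR. Chst11 was ordered Tet2-WT, Tet2-E, pMXs and untreated, the same order as Chst3, but only the last step passed. Chst12, Chst14, Chsy1, Chsy3, Chpf and Csgalnact1 were highest in untreated MEFs, and in each the step down from untreated to the next group passed. Among the day 5 groups, the neighbours of these genes did not differ by edgeR, apart from Csgalnact1 with Tet2-WT below Tet2-E. Chst15 was ordered pMXs, Tet2-E, Tet2-WT and untreated, where only the last step passed.

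Across the 13 libraries, which fall into 4 groups and share scaling, the log2 level of Chst3 had a Pearson correlation of -0.99 with Chsy1, -0.98 with Csgalnact1, -0.97 with Chst14, -0.96 with Chpf, -0.94 with Chsy3 and -0.89 with Chst12. The positive ones were 0.88 for Chst11 and 0.63 for Chst15, and Chst7 had -0.48. Over the 10 day 5 libraries alone, the value was -0.93 for Chsy1, -0.92 for Csgalnact1 and -0.87 for Chst7, while Chst12 turned to 0.67 and Chst15 to -0.80. These are descriptions over few groups, and Chst3 was chosen for its pattern.

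The 6 genes with the pattern most like Chst3, by Pearson correlation of log2 CPM over the 13 libraries among 10644 genes with a mean of at least 5 CPM, were Srd5a1, Fam102a, Slc39a14, Aldh3a1, Fam53b and Elmod1, with values of 0.998 for the first and 0.995 for the last. Srd5a1, a steroid 5-alpha-reductase, was at 90.0, 87.3 and 80.8 CPM with Tet2-WT and 50.2, 45.1, 51.1 and 47.1 CPM with Tet2-E, against 37.3, 38.7 and 37.6 CPM with pMXs and 3.00, 3.93 and 3.65 CPM in untreated MEFs. Like Chst3, it had no overlap between groups. Aldh3a1, an aldehyde dehydrogenase, averaged 839 CPM with Tet2-WT and 348 CPM with Tet2-E, against 229 CPM with pMXs and 1.09 CPM in untreated MEFs. Elmod1 averaged 48.5 CPM with Tet2-WT and 24.7 CPM with Tet2-E, against 15.1 CPM with pMXs and 0.144 CPM in untreated MEFs. Slc39a14, a zinc and manganese transporter, had the same order with smaller steps, at 295 CPM with Tet2-WT, 227 CPM with Tet2-E, 209 CPM with pMXs and 75.6 CPM in untreated MEFs. Over the day 5 libraries alone, the correlation was 0.994 for Aldh3a1, 0.983 for Srd5a1 and 0.939 for Slc39a14. The genes were ranked on these same libraries, so their likeness to Chst3 follows from the choice and is only a description.

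**Figure D4:**
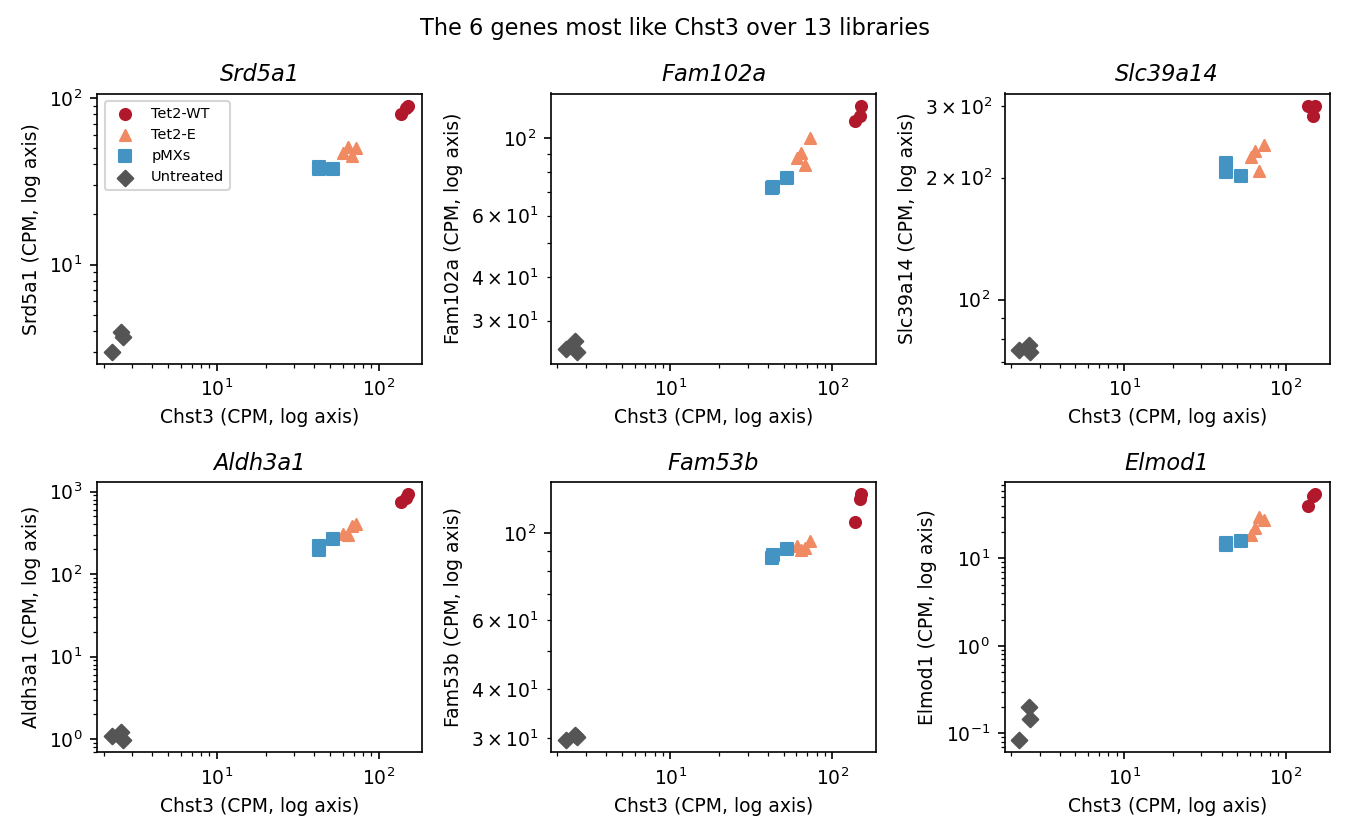
Level of each of the 6 genes most like Chst3 against the level of Chst3, both in CPM on log axes, 1 point a library for Tet2-WT, Tet2-E, pMXs and untreated libraries. In each panel the Tet2-WT libraries are at the upper right and the untreated MEFs at the lower left, with Aldh3a1 means of 839 CPM with Tet2-WT and 1.09 CPM in untreated MEFs.

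The rest of the pathway was read from lists of enzymes, suppliers, breakdown enzymes, core proteins and receptors. Their counts stand against the background shares given above, and their medians against an all-gene median near 0. Of 7 enzymes that build the linkage between chain and protein, 5 fell with pMXs against untreated MEFs and none rose (list median -0.70, log2), among them the xylose kinase Fam20b (-0.76 ± 0.07, log2) and the phosphatase Pxylp1 (-1.30 ± 0.12). Of 6 further chondroitin and dermatan chain enzymes, 5 were tested and all 5 fell (median -1.08), among them Dse, an epimerase that turns chondroitin into dermatan, by 1.58 ± 0.10 (51.1 CPM with pMXs, against 153 CPM untreated), and Csgalnact2 by 1.21 ± 0.13 (37.7 CPM with pMXs, against 87.1 CPM untreated). Csgalnact2, the paralog of Csgalnact1, thus fell in the same direction.

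The supply of sulfate and sugars split with pMXs against untreated MEFs, with 4 of 17 genes higher and 10 lower (median -0.42). Papss1, which makes the sulfate donor PAPS, rose by 1.53 ± 0.08 (log2, 178 CPM with pMXs, against 61.6 CPM untreated, edgeR adjusted p = 1.19e-10), whereas its paralog Papss2 fell by 1.53 ± 0.18 (15.2 CPM with pMXs, against 43.7 CPM untreated). The sulfate transporter Slc26a2 rose by 0.93 ± 0.10 (57.4 CPM with pMXs, against 30.2 CPM untreated). Ugdh, which makes the glucuronic acid donor, fell by 2.17 ± 0.08 (47.5 CPM with pMXs, against 214 CPM untreated, adjusted p = 6.56e-12).

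Heparan sulfate enzymes, which build on the same linkage region, had 18 of 23 genes tested, with 2 higher (Extl1 and Hs6st1) and 8 lower with pMXs against untreated MEFs (median -0.14). The rise of Hs6st1 was 0.39 (adjusted p = 0.000808), and within replicate numbers 100 and 250 the difference was 0.23. Of 5 tested sulfotransferases of other sugars, 4 fell (median -2.09), led by Chst1 (-3.10 ± 0.30, log2). The gene that rose, named after its values were seen, was Chst4, at 0.537 CPM with pMXs against 0.0498 CPM in untreated MEFs. It passed the count filter only through day 5 libraries, so its call is no evidence of a rise. Lysosomal breakdown enzymes had 7 of 11 lower and none higher (median -0.62), among them Hexa (-1.36 ± 0.12) and Idua (-1.13 ± 0.12). Core proteins had 10 of 15 tested lower and 2 higher (median -1.70): Vcan, the large matrix proteoglycan versican, fell by 2.49 ± 0.26 (283 CPM with pMXs, against 1584 CPM untreated), and Cd44 rose by 0.39 ± 0.10 (651 CPM with pMXs, against 497 CPM untreated). The other core protein that rose, also named after its values were seen, was Cd74, at 0.885 CPM with pMXs, against 0.188 CPM untreated. It too passed the count filter only through day 5 libraries. Of 4 receptors that bind these chains, 3 fell (Rtn4r, Rtn4rl1 and, named after its values were seen, Ptprs) and Ptprf rose by 0.78 ± 0.10.

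With Tet2-WT against pMXs, 21 of the 82 list genes tested passed, and list medians lay between -0.45 (core proteins) and 0.13 (other sulfotransferases). The 21 include Srgn, whose limit is given below. Among the chain and linkage enzymes 3 fell, Dse by 0.63 ± 0.10 (log2, 33.0 CPM with Tet2-WT, against 51.1 CPM with pMXs, edgeR adjusted p = 0.000616), Ust, the uronyl 2-O-sulfotransferase, by 0.59 ± 0.10 (6.45 CPM with Tet2-WT, against 9.70 CPM with pMXs, adjusted p = 0.00155), and Xylt2, a xylosyltransferase that begins the linkage, by 0.54 ± 0.10 (19.0 CPM with Tet2-WT, against 27.6 CPM with pMXs, adjusted p = 0.0026). Of the 18 heparan sulfate enzymes tested, 4 fell and none rose. Sulf1, which removes 6-O-sulfate from heparan sulfate outside the cell, fell by 0.89 ± 0.09 (165 CPM with Tet2-WT, against 304 CPM with pMXs, adjusted p = 2.2e-05), and Hs3st1 fell by 1.05 ± 0.22 (0.646 CPM with Tet2-WT, against 1.34 CPM with pMXs, adjusted p = 0.0054). The Hs3st1 call was lost within replicate numbers 1 and 2 (adjusted p = 0.145) and within 100 and 250 (0.0893), and the Ust call within 1 and 2 (0.0675). None of the 5 other sulfotransferases tested passed by edgeR or DESeq2, and none had an unadjusted p under 0.05.

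On the breakdown side, 2 of 11 enzymes rose with Tet2-WT against pMXs: Hyal1, a hyaluronidase that also cuts chondroitin, by 0.98 ± 0.18 (log2, 75.5 CPM with Tet2-WT, against 38.4 CPM with pMXs, edgeR adjusted p = 0.00314) and the glucuronidase Gusb by 0.59 ± 0.08 (141 CPM with Tet2-WT, against 94.3 CPM with pMXs, adjusted p = 0.000275). Among supply genes 2 of 17 rose, Slc26a2 by 0.38 ± 0.10 (adjusted p = 0.0161) and the nucleotide sugar transporter Slc35d1 by 0.26 ± 0.08 (adjusted p = 0.0474). The Slc26a2 difference was 0.32 within replicate numbers 1 and 2 and 0.35 within 100 and 250. Its adjusted p was 0.0961 without Tet2-WT replicate 1, 0.0793 without pMXs replicate 100 and 0.0695 without pMXs replicate 250. The Slc35d1 call was lost in most of the alternatives. Its adjusted p was 0.102 with the replicate block, 0.0609 with the set term, 0.0524 with RLE scaling and 0.0666 without a filter. The adjusted p was 0.231 without Tet2-WT replicate 1, 0.108 without Tet2-WT replicate 2, and 0.0934, 0.159 and 0.0961 without pMXs replicates 2, 100 and 250. The Slc35d1 difference was 0.31 within replicate numbers 1 and 2 and 0.14 within 100 and 250. With the receptors, Ptprf rose by 0.46 ± 0.09 (adjusted p = 0.00423) and Ptprs fell by 0.30 ± 0.09 (adjusted p = 0.031). The Ptprf difference was 0.34 within replicate numbers 100 and 250. The Ptprs difference was -0.27 within replicate numbers 1 and 2 and -0.29 within 100 and 250. Its adjusted p was 0.0519 to 0.182 in 5 of the 6 fits that left out a library, the exception being pMXs replicate 100.

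Of the 15 core proteins tested, 2 were called higher and 6 lower with Tet2-WT against pMXs. One of those called higher was Srgn, the serglycin core protein typical of blood cells. It passed the count filter only through the Tet2-WT libraries, so it is given without its test and its call is no evidence of a rise. It had 143, 181 and 127 counts in Tet2-WT libraries, against 6, 4 and 2 counts in pMXs libraries. In the same contrast, 4 of the 5 macrophage markers tested (Laptm5, Itgam, Cd68 and Csf1r) were higher and none lower, and their part in the result was not tested. Cd44 rose by 0.45 ± 0.10 (892 CPM with Tet2-WT, against 651 CPM with pMXs, adjusted p = 0.00531). Bgn, the biglycan core protein, fell by 1.24 ± 0.19 (474 CPM with Tet2-WT, against 1120 CPM with pMXs, adjusted p = 0.00053). Col9a2, a collagen that carries a chain, fell to low levels (0.632 CPM with Tet2-WT, against 1.54 CPM with pMXs, adjusted p = 0.00423). Within replicate numbers 1 and 2 the log2 difference of Col9a2 was -1.10. Of 11 fibroblast markers 5 were lower and 1 higher in the same contrast.

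With Tet2-E against pMXs, none of the 82 list genes tested passed by edgeR, and DESeq2 called 1, where it called 141 genes in all. Of the 82, 15 had an unadjusted p under 0.05 by edgeR. The share of all genes under that unadjusted value was not computed, so the 15 cannot be set against it. With Tet2-WT against Tet2-E, 9 of the 82 passed by edgeR, and 13 with the replicate number as a block and also 13 by DESeq2. The shares of all genes called by the block fit and by DESeq2 are not given here. Sulf1 fell by 0.56 ± 0.09 (log2, 165 CPM with Tet2-WT, against 243 CPM with Tet2-E, edgeR adjusted p = 0.00152). Srgn was also among the genes called, at 6.51 CPM with Tet2-WT, against 0.532 CPM with Tet2-E, with the same limit of the filter. Dse fell by 0.43 ± 0.09 (adjusted p = 0.0142, but 0.0804 and 0.0846 when Tet2-WT replicate 1 or 2 was left out). Gusb rose by 0.39 ± 0.08 (adjusted p = 0.00705, but 0.0524 and 0.0516 without these same libraries). Hs3st1 and Col9a2, which were low, and Ptprz1, a receptor phosphatase, passed as lower, but each missed the threshold without Tet2-WT replicate 1 (adjusted p of 0.0538 for Hs3st1, 0.0949 for Col9a2 and 0.0568 for Ptprz1). Ptprz1 also missed it without Tet2-WT replicate 2 (0.0644), and Col9a2 without Tet2-WT replicate 250 (0.0837) or Tet2-E replicate 250 (0.084). Within replicate numbers 1 and 2 the adjusted p was 0.199 for Hs3st1 and 0.28 for Col9a2. Within 100 and 250 the log2 differences were -0.30 for Dse, 0.33 for Gusb, -1.21 for Hs3st1 and -0.44 for Ptprz1.

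**Figure D5:**
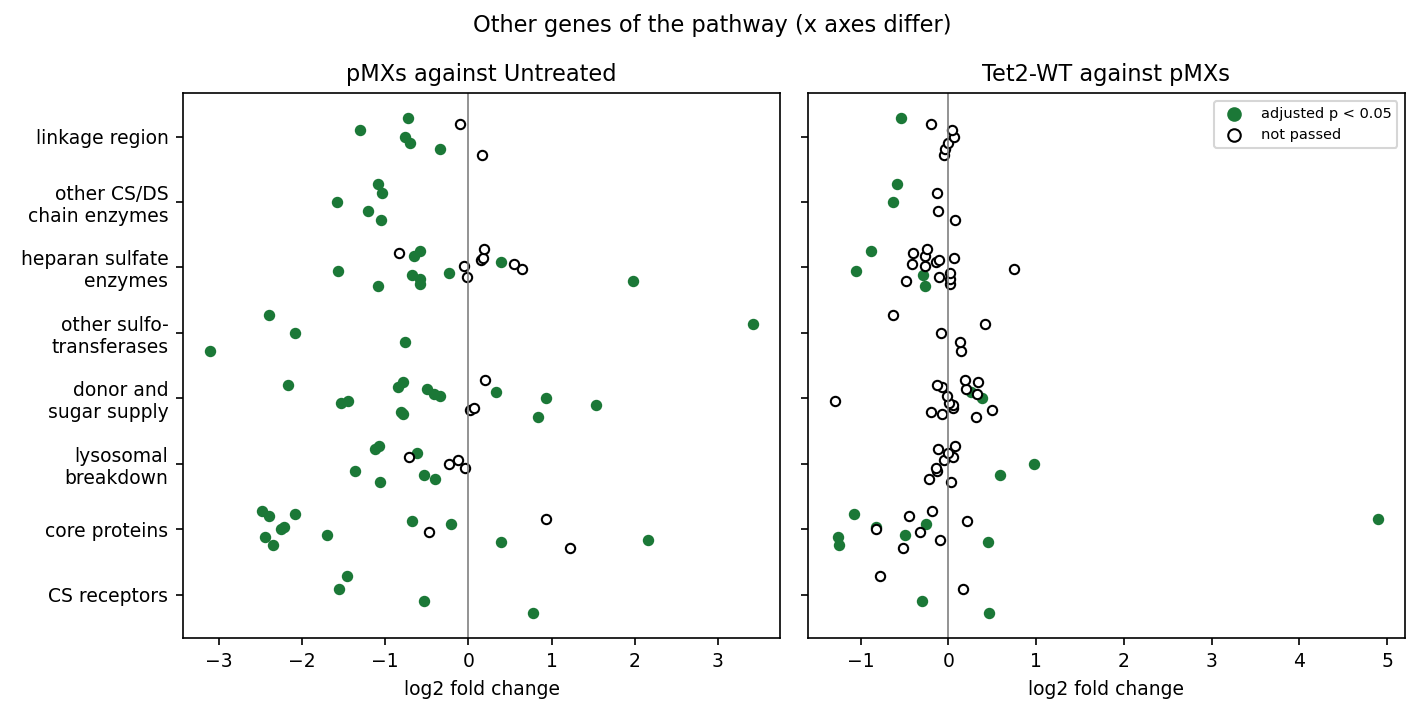
Log2 fold changes of the genes in each pathway list for pMXs against untreated MEFs and for Tet2-WT against pMXs, on axes of different width (1 point a gene; green, passed; open, not passed; CS, chondroitin sulfate; DS, dermatan sulfate). All 5 points of the other chain enzymes lie below 0 against untreated MEFs, and with Tet2-WT against pMXs the point far to the right is Srgn, which had 2 to 6 counts in each pMXs library.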

How the data were processed

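RNA-seq counts were analysed for 13 libraries. The authors deposited raw read counts per gene, made with STAR 2.6.1a on mm9 and featureCounts 1.6.2, as the submitters' processing notes list. The library kit was stranded, but whether reads were counted by strand is not given in the sources used here, so overlapping antisense genes cannot be told apart. In R 4.3.3, edgeR 4.0.16 kept genes by filterByExpr (count minimum 10, total minimum 15), scaled libraries by TMM and fitted 1 robust quasi-likelihood model with a mean for each of the 4 groups. Adjusted p-values are Benjamini-Hochberg values over the 14607 genes tested, and "rose" or "fell" marks values under 0.05. The SE was approximated from the log2 change and the quasi-likelihood F. CPM are TMM-scaled and not divided by gene length, so levels are not compared between genes. Chi-square over degrees of freedom was 6.63 to 43.2 between replicates, so they differed beyond sampling noise.

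The members and lists were chosen with earlier results of these data known. Chst3 was left untested in every comparison with Tet2-WT or Tet2-E libraries, which is more than had been planned. From each list the text names up to 2 risen and 2 fallen genes, taking the greatest change among those at 1 CPM or more in a group, and other genes are marked as named after their values were seen. Overlap and enrichment tests were not made.

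Samples with the same replicate number were checked for pairing on deviations from group means. Day 5 pairs correlated at 0.121 to 0.339 across genes for Tet2-WT with Tet2-E and 0.153 to 0.258 for Tet2-E with pMXs, over 3 pairs each. Libraries of the same set with different numbers correlated at 0.0784 to 0.286 and 0.118 to 0.363 in these comparisons. The values therefore do not tell pairing by number from a shared set. The other comparisons had too few pairs or lower values. Alternatives were a replicate block, a term for the set of replicate numbers, values within each set, RLE scaling, DESeq2 1.42.0, an unfiltered table, a filter of 1 CPM in 3 libraries, fits of the compared groups alone, and fits without each library. The procedure was also run on simulated counts with the same spread for every gene and no sets. These libraries differ from that setting, so the run checks the code alone. Promoter windows came from RefSeq (GRCm38.p6). No window was available for Csgalnact1, and that of Chsy3 was left out by its chromosome. The counts over all windows include that chromosome.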

Additional observations from a re-analysis of the deposited data

Results flagged for a closer look

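In the Tet2-E group of 4 libraries, a library stood apart from the rest by Dixon's criterion at the 95% level for 2 of the 11 genes checked, which were the 10 enzymes and Tet2. Chsy1 was at 93.4 CPM in Tet2-E replicate 2, where the nearest of the other Tet2-E libraries was at 88.8 CPM. Tet2 was at 581 CPM in Tet2-E replicate 100, where the nearest was at 1299 CPM. Chance flags about 5% of such groups.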

How the results depend on the processing

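Chst3 kept its direction under every alternative run, with log2 differences of 1.51 to 1.77 for Tet2-WT against pMXs, 0.42 to 0.63 for Tet2-E against pMXs and 4.02 to 4.45 for pMXs against untreated. The alternatives reuse the libraries for whose counts Chst3 was chosen, so its ranges with Tet2-WT and Tet2-E are a description and no support. For the 9 other genes, signs turned only where the main difference had not passed. In pMXs against untreated, Chst7 was -0.28 within replicate numbers 1 and 2, and in Tet2-E against untreated it was 0.24 within 100 and 250 (-0.47, passing, within 1 and 2). In Tet2-E against pMXs, Chst12 was -0.0035 with the replicate block, -0.042 within numbers 1 and 2 and -0.034 to 0.059 when single libraries were left out. There Csgalnact1 was 0.027 with the block, 0.010 with the set term, 0.058 within numbers 1 and 2 and -0.065 to 0.023 with single libraries left out, and Chpf was -0.042 to 0.074 and Chsy3 -0.088 to 0.27 with single libraries left out. In Tet2-WT against pMXs, Chpf was 0.15 within numbers 1 and 2 and -0.11 to 0.010 with single libraries left out. In Tet2-WT against Tet2-E, within numbers 1 and 2, Chpf was 0.018, Chst11 -0.049, Chst14 0.035 and Tet2 -0.19, and with single libraries left out Chst14 was -0.062 to 0.025 and Tet2 -0.15 (without Tet2-E replicate 100) to 0.18.

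The count of genes changed in Tet2-E against pMXs (7) was 141 with DESeq2, 17 without a filter, 93 with the replicate block, 152 with the set term, 103 within numbers 1 and 2, 83 within 100 and 250, 0 with only the groups compared and 1 to 50 with single libraries left out. In Tet2-WT against Tet2-E (675) it was 1052 with the set term, 1015 within numbers 1 and 2 and 335 to 675 with single libraries left out, and in Tet2-WT against pMXs (1830) it was 1097 to 1821. Of the 9 genes, 2 were called in Tet2-WT against Tet2-E with DESeq2, the block, the set term and within numbers 1 and 2, and 0 to 2 with single libraries left out. The cause of these changes was not tested. For Tet2-WT against Tet2-E, the shares of all genes called by DESeq2 and by the block fit are not given here. The replicate block changed no other call among the 9 genes in Tet2-E against pMXs and Tet2-WT against Tet2-E.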
